A study of Mus musculus with 45 samples.

Results

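The 38 genes described here encode core parts of the mitotic machinery of the mouse, namely the entry cyclins and Cdk1, the spindle kinases, the spindle checkpoint, the chromosomal passenger complex, centromere and kinetochore proteins, spindle motors, anaphase regulators and the proteins of the midzone and cytokinesis. They were picked out by gene symbol, and all 38 were found among the 55335 genes of each deposited expression table. RNA had been sequenced from the mouse lines CT26, labelled as colon carcinoma, and Hepa1-6, labelled as liver, in a study of SOAT1, the enzyme of the endoplasmic reticulum that esterifies cholesterol for storage. In the drug experiment, wild-type CT26 and wild-type Hepa1-6 cells were exposed for 48 h to a compound that the labels call only stk, or to the DMSO vehicle. In the knockdown experiment, untreated cells were collected 24 h after seeding. These were CT26 lines labelled as SOAT1 knockdown with hairpin sh1, sh2 or sh3, a CT26 line with a luciferase hairpin (shLucif), a Hepa1-6 line with a scramble hairpin, and a line labelled Hepa1-6 with shLucif. Each of these 10 groups had 3 libraries, and 30 of the 45 labelled samples were analysed here. The labels do not say whether a knockdown line is 1 clone or a pool, or whether the libraries of a group came from separate cultures, so the p-values below measure only the spread between these libraries.

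Cells enter mitosis when cyclin B and Cdk1 become active together, and they leave it when the anaphase-promoting complex marks cyclin B and securin for destruction. In between, the spindle captures each chromosome through its kinetochores, and the spindle checkpoint holds back anaphase until every kinetochore is attached. Most of these genes are transcribed mainly in G2 and M phase, so that in a culture their messenger RNA follows the share of cells in those phases, and tumour lines, which divide continuously, express them strongly. In bulk RNA, fewer cells of a phase and less RNA per cell cannot be told apart.

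The libraries were checked before the genes were compared. Soat1 stood at 3.23 to 3.29 FPKM (fragments scaled to transcript length and to the mapped fragments of the library) in the sh1 libraries, at 3.41 to 3.55 in sh2 and at 2.52 to 2.71 in sh3, against 19.7 to 20.2 FPKM in CT26 shLucif, so that all 3 hairpins lowered their target. The libraries labelled Hepa1-6 shLucif went against their label in some markers and not in others. Alb, the hepatocyte albumin gene, was at 123 to 143 FPKM in Hepa1-6 scramble libraries, against 1.33 to 1.78 FPKM in the libraries labelled Hepa1-6 shLucif, and Hnf4a, a hepatocyte transcription factor, at 42.0 to 44.7 FPKM against 5.01 to 5.37. Trf, the transferrin gene, was at 69.0 to 69.3 FPKM in scramble libraries, against 50.5 to 59.1 FPKM in those labelled Hepa1-6 shLucif, while it was at 0 to 0.029 FPKM in the CT26 libraries. Of 15 hepatocyte genes 9 had a mean of 1 FPKM or more in scramble libraries, 5 in those labelled Hepa1-6 shLucif and 1 in each CT26 group. Soat1 was at 0.098 to 0.182 FPKM in scramble libraries, against 12.7 to 13.6 FPKM in those labelled Hepa1-6 shLucif. CT26 cells had none of 5 intestinal epithelial marker genes at a mean of 1 FPKM or more in the DMSO or stk groups, although the line is labelled colon carcinoma, and Hepa1-6 cells with DMSO had 9 of 15 hepatocyte genes at that level. Relative sequencing depth, read from the smallest steps of low values, spanned 0.923 to 1.16 of the median in the drug experiment and 0.849 to 1.249 in the knockdown experiment.

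The promoters of these genes are shown first because the genes are known to share control elements. The repressor DREAM and the activator B-Myb with MuvB bind the cell-cycle homology region (CHR), and NF-Y binds CCAAT boxes. RefSeq promoter windows of GRCm38.p6, reaching from 250 bases before to 50 after a start site, were matched by symbol for 32 of the 38 genes. The windows were searched on both strands for the CHR as TTTGAA or TTTAAA and for CCAAT. The CHR letters TTTAAA read the same on both strands, and a CCAAT box can share bases with a CHR beside it. A CHR was found in 27 of 32 member windows (84.4%) and in 27.8% of 27025 gene windows, and a CHR that began within 50 bases of the start site in 25 of 32 (78.1%) and in 8.2%. CCAAT was found in 24 of 32 (75.0%) and in 37.9% of all, and both motifs together in 23 of 32 (71.9%) and in 10.9%. These letters are a description of the sequence and show no binding. The 150 bases before the start site follow for 7 genes that the results turn on, with CHR and CCAAT in capitals on either strand, so that ATTGG and TTCAAA are the same motifs read from the other strand. Cdk1 and Ccnb1 are the entry kinase and its cyclin, Plk1, Espl1 and Cdc20 rose with hairpin sh3, and Bub1 and Pttg1 rose with each hairpin.
Cdk1, chr10:69352913-69353062, minus strand: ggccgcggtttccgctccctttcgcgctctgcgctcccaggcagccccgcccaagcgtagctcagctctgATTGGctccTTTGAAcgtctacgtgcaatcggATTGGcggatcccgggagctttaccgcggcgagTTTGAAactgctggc
Ccnb1, chr13:100786487-100786636, minus strand: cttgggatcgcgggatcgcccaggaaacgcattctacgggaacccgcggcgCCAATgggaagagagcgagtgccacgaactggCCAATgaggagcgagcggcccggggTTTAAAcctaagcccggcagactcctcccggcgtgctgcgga
Plk1, chr7:122159285-122159434, plus strand: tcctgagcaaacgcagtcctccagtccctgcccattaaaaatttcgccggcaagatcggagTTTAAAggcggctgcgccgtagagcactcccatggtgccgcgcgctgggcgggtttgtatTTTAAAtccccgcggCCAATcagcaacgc
Espl1, chr15:102296143-102296292, plus strand: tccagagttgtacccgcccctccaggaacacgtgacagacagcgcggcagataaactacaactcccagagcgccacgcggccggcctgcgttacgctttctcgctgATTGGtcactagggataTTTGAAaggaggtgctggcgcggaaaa
Cdc20, chr4:118437344-118437493, minus strand: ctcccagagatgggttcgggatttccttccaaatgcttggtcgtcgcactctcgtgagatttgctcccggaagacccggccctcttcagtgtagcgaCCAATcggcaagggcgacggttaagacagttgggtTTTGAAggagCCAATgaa
Bub1, chr2:127831860-127832009, minus strand: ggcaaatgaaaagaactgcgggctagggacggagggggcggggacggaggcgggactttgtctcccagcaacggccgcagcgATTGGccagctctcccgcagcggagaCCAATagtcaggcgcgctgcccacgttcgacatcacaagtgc
Pttg1, chr11:43425982-43426131, minus strand: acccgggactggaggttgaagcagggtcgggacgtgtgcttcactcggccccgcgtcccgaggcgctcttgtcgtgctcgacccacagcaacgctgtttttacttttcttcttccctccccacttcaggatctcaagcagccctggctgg
In Ccnb1 the CHR began 42 bases before the start site and lay behind CCAAT boxes at 99 and 67 bases, in Cdk1 CHRs began at 71 and 15 bases, and in Espl1 the CHR at 27 bases followed a CCAAT box at 44 bases. Bub1 held CCAAT boxes at 68 and 42 bases and no CHR in its window, and Pttg1 held neither. No match says only that these letters are not in this window. Where a gene had several windows the first listed was used, for members and for all genes alike. By the GENCODE M21 annotation the Pttg1 stretch lies inside the gene, whose annotated start is at chr11:43426251. The promoter at that start was therefore not searched.

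Summed over the 38 genes, the level of the mitotic set was steady within each group. In CT26 the sums were 1043, 1040 and 1044 FPKM with sh1, 1024, 1032 and 1032 FPKM with sh2, and 1273, 1273 and 1221 FPKM with sh3, against 1090, 1052 and 1047 FPKM with shLucif. The sh3 libraries lay above all others of the line in that experiment, and the sh1 and sh2 libraries lay below all 3 shLucif libraries. The gap was small for sh1, at 1044 FPKM against 1047 FPKM. The FPKM of all genes also summed lower with sh1, at 322287 to 322637, against 327028 to 330500 with shLucif, while sh2 and sh3 overlapped shLucif. The part of this total in the member sums was not tested. With stk the sums were 1621, 1615 and 1599 FPKM in CT26, against 1598, 1599 and 1562 FPKM with DMSO, so that these groups overlapped. In Hepa1-6 they were 1138, 1176 and 1146 FPKM with stk, against 1219, 1235 and 1223 FPKM with DMSO, and the stk libraries lay lower without overlap.

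**Figure D1:**
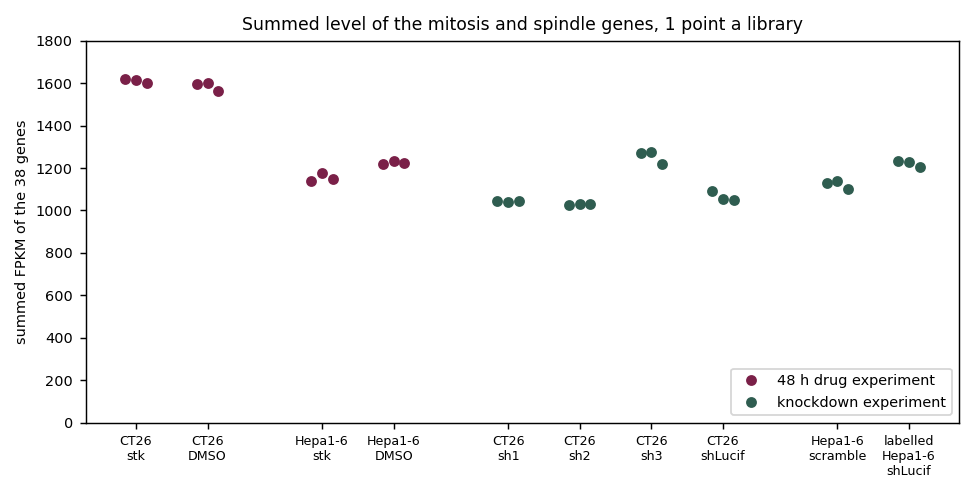
Summed FPKM of the 38 mitosis and spindle genes (vertical axis, from 0) in each library (points), by group; colours mark the drug and the knockdown experiment, whose tables were normalized separately. CT26 sh3 libraries sit at 1221 to 1273, above CT26 shLucif at 1047 to 1090, and Hepa1-6 stk libraries sit at 1138 to 1176, below Hepa1-6 DMSO at 1219 to 1235.

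The knockdown comparison asked how CT26 cells with less Soat1 differ from those with shLucif, and the 3 hairpins did not give 1 answer for these genes. With sh3, mitotic genes of nearly every role rose, led by Kif20a, Espl1, Bub1, Cdc20 and Ttk. With sh1 and sh2 most did not pass the test, and of those that did more fell than rose. The share of members called lower was near that of all genes tested, and the share called higher was below it, as given below. Kif20a, Ttk and Ccna2 fell with sh1 and sh2 and rose with sh3. All 3 comparisons share the 3 shLucif libraries. Calls here rest on the limma fit and on p-values adjusted by Benjamini-Hochberg over all 11832 genes tested, with 0.05 as the threshold, and all 38 members passed the filter of 1 FPKM in 3 libraries in this and the other fits. With sh3, 25 of 38 members were called higher and 2 lower, where 52.5% of the genes tested were called, 30.9% higher and 21.6% lower. With sh1, 4 were called higher and 7 lower, beside 19.1% and 18.7% of the genes tested, and with sh2 4 higher and 9 lower, beside 18.9% and 20.0%. The median member difference on the log2(FPKM + 1) scale was 0.26 with sh3, beside 0.040 over all genes tested, -0.047 with sh1, beside -0.005, and -0.074 with sh2, beside -0.011. The difference was above 0 in 31 members with sh3, where 54.8% of the genes tested were above 0, and below 0 in 25 members with sh1 and 23 with sh2, where 50.9% and 51.8% of the genes tested were below 0. All log2 fold changes here are on that scale, which understates the change of low genes.

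**Figure D2:**
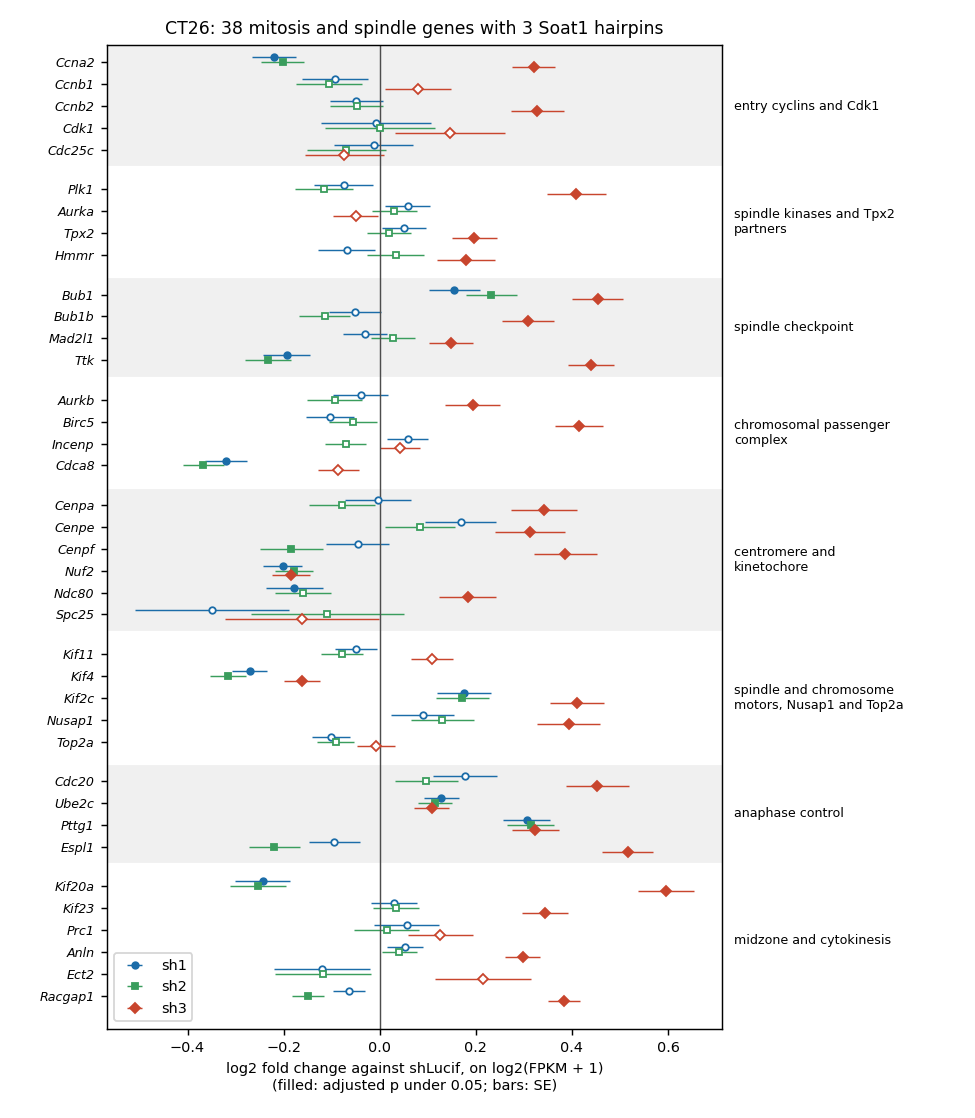
Log2 fold change against shLucif on the log2(FPKM + 1) scale (horizontal axis) with its SE (bars) for the 38 genes, grouped by role, in CT26 with sh1 (circles), sh2 (squares) and sh3 (diamonds); filled symbols had an adjusted p under 0.05. The sh3 symbols lie to the right of the sh1 and sh2 symbols for most genes, with Kif20a farthest right at 0.59.

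Among the genes of mitotic entry, 2 of 5 rose with sh3, namely the cyclin genes Ccna2 and Ccnb2. Ccna2, whose cyclin A2 carries cells through S phase into mitosis, was at 58.1, 62.2 and 58.1 FPKM with sh1, 58.1, 62.7 and 59.9 FPKM with sh2 and 86.2, 91.7 and 83.1 FPKM with sh3, against 70.3, 69.7 and 68.2 FPKM with shLucif. The sh1 and sh2 libraries all lay below shLucif and the sh3 libraries all lay above it. Its log2 fold change was -0.22 ± 0.045 (SE) with sh1 (adjusted p = 0.00292), -0.20 ± 0.045 with sh2 (adjusted p = 0.00476) and 0.32 ± 0.045 with sh3 (adjusted p = 0.000137). Ccnb1, which encodes cyclin B1, the partner of Cdk1 at mitotic entry, was at 32.2, 32.4 and 33.7 FPKM with sh1, 35.8, 31.3 and 30.7 FPKM with sh2 and 40.7, 35.1 and 35.7 FPKM with sh3, against 37.1, 34.3 and 33.8 FPKM with shLucif. Its sh2 and sh3 libraries overlapped shLucif and no hairpin gave a call, the adjusted p being 0.325 with sh1, 0.259 with sh2 and 0.358 with sh3. Cdk1, the kinase that drives entry, was at 23.3, 27.4 and 21.3 FPKM with sh1, 27.8, 22.9 and 21.8 FPKM with sh2 and 27.7, 28.2 and 24.4 FPKM with sh3, against 26.4, 21.1 and 24.9 FPKM with shLucif. Its libraries overlapped in every comparison and spread more widely than those of most members, with an SE of 0.11 on the log2 scale and a difference of 0.15 with sh3 (95% interval -0.11 to 0.40).

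Among the spindle kinases and the partners of Tpx2, the kinase gene Plk1 rose with sh3 and the kinase gene Aurka did not pass the test with any hairpin. Plk1, which acts at centrosomes, kinetochores and the midbody, was at 38.4, 35.5 and 32.2 FPKM with sh1, 33.5, 35.0 and 34.3 FPKM with sh2 and 51.3, 50.5 and 47.5 FPKM with sh3, against 38.9, 35.4 and 37.5 FPKM with shLucif. The sh3 libraries stood above all others, by 0.41 ± 0.061 on the log2 scale (adjusted p = 0.000199). Aurka, the centrosomal Aurora kinase, was at 52.7, 49.9 and 49.5 FPKM with sh1, 48.4, 48.7 and 52.0 FPKM with sh2 and 46.5, 46.5 and 47.8 FPKM with sh3, against 51.5, 46.1 and 48.4 FPKM with shLucif. All of these overlapped, and the sh3 difference of -0.050 had an adjusted p of 0.394. Tpx2, which activates Aurka on spindle microtubules, and Hmmr, a microtubule-binding partner of Tpx2, both rose with sh3, by 0.20 and 0.18.

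All 4 spindle checkpoint genes rose with sh3. Ttk, the Mps1 kinase that starts checkpoint signalling at unattached kinetochores, was at 7.17, 7.02 and 7.51 FPKM with sh1, 6.99 to 7.06 FPKM in the 3 libraries with sh2 and 12.4, 11.8 and 11.1 FPKM with sh3, against 8.41, 8.08 and 8.76 FPKM with shLucif. No group overlapped shLucif, with sh1 and sh2 below it and sh3 above it. The log2 fold change was -0.19 ± 0.048 with sh1 (adjusted p = 0.00883), -0.23 ± 0.048 with sh2 (adjusted p = 0.00309) and 0.44 ± 0.048 with sh3 (adjusted p = 2.17e-05). Bub1, a checkpoint kinase that also marks centromeric chromatin, was at 16.2, 17.3 and 18.5 FPKM with sh1, 17.8, 18.1 and 19.1 FPKM with sh2 and 22.4, 21.9 and 20.3 FPKM with sh3, against 15.2, 15.8 and 15.3 FPKM with shLucif. Every hairpin library lay above every shLucif library, and the log2 fold change was 0.16 with sh1 (adjusted p = 0.0399), 0.23 with sh2 (adjusted p = 0.00539) and 0.45 with sh3 (adjusted p = 3.53e-05). Bub1b (BubR1) and Mad2l1 (Mad2), whose proteins are parts of the checkpoint inhibitor of the anaphase-promoting complex, rose by 0.31 and 0.15 with sh3 and gave no call with sh1 or sh2.

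**Figure D3:**
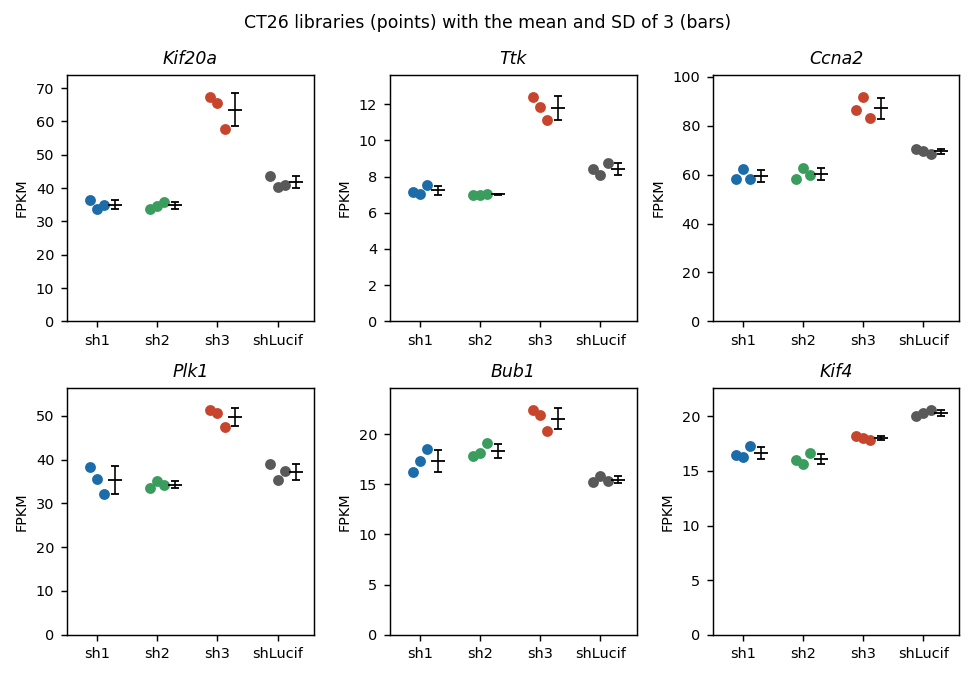
FPKM (vertical axes, from 0) of Kif20a, Ttk, Ccna2, Plk1, Bub1 and Kif4 in each CT26 library (points) with sh1, sh2, sh3 and shLucif, with the mean and SD of 3 libraries beside the points. Kif20a, Ttk and Ccna2 are below shLucif with sh1 and sh2 and above it with sh3, Bub1 is above shLucif with each hairpin, and Kif4 is below it with each.

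In the chromosomal passenger complex, which corrects faulty attachments and moves to the midzone in anaphase, the members differed in their calls. Birc5 (survivin) was at 25.8, 26.5 and 24.6 FPKM with sh1, 26.1, 28.7 and 24.9 FPKM with sh2 and 38.3, 36.4 and 36.6 FPKM with sh3, against 27.5, 27.5 and 27.8 FPKM with shLucif. It rose with sh3 by 0.41 ± 0.050 (adjusted p = 4.4e-05) and gave no call with the others. Cdca8 (borealin) was at 13.7, 13.6 and 13.1 FPKM with sh1, 13.3, 12.7 and 12.9 FPKM with sh2 and 16.1, 15.3 and 16.6 FPKM with sh3, against 17.5, 16.3 and 17.3 FPKM with shLucif. The sh1 and sh2 libraries lay lowest without overlap, by -0.32 ± 0.043 (adjusted p = 0.000187) and -0.37 ± 0.043 (adjusted p = 6.84e-05), and the sh3 libraries overlapped shLucif (adjusted p = 0.118). The catalytic subunit gene Aurkb rose by 0.19 with sh3, and the scaffold gene Incenp gave no call with any hairpin.

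Of the 6 centromere and kinetochore genes, 4 rose and 1 fell with sh3. Cenpa, the histone H3 variant of centromeres, rose by 0.34, Cenpe, a kinetochore motor, by 0.31, Cenpf, a large kinetochore protein, by 0.39, and Ndc80, which grips the microtubule, by 0.18. Nuf2, the partner of Ndc80 in the same complex, fell instead. It was at 14.9, 14.5 and 15.8 FPKM with sh1, 15.5, 15.2 and 15.4 FPKM with sh2 and 15.0, 15.4 and 15.5 FPKM with sh3, against 17.8, 16.9 and 17.8 FPKM with shLucif. All hairpin libraries lay below all shLucif libraries, with log2 fold changes of -0.20, -0.18 and -0.19 and adjusted p of 0.00232, 0.00473 and 0.00245 for sh1, sh2 and sh3. Spc25, another subunit gene of that complex, gave no call, and 1 sh1 library stood apart at 13.5 FPKM where the other sh1 libraries were at 22.5 and 24.6 FPKM.

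The spindle and chromosome motors were split as well. Kif4, a chromosome-bound kinesin, was at 16.4, 16.3 and 17.2 FPKM with sh1, 16.0, 15.7 and 16.6 FPKM with sh2 and 17.9 to 18.2 FPKM in the 3 libraries with sh3, against 20.0, 20.3 and 20.6 FPKM with shLucif. It was lower without overlap with each hairpin, by -0.27 ± 0.037, -0.32 ± 0.037 and -0.16 ± 0.037 for sh1, sh2 and sh3 (adjusted p = 0.000195, 6.35e-05 and 0.00343). Kif2c, a microtubule depolymerase, rose with each hairpin, by 0.18, 0.17 and 0.41, and Nusap1, a microtubule bundler, rose by 0.39 with sh3. Top2a, the topoisomerase that untangles sister chromatids, was at 53.1, 53.6 and 58.3 FPKM with sh1, 53.8, 57.1 and 55.2 FPKM with sh2 and 58.1, 59.2 and 58.8 FPKM with sh3, against 59.4, 59.1 and 58.7 FPKM with shLucif. The sh3 libraries overlapped shLucif, those with sh1 and sh2 lay just below it, and no hairpin gave a call (adjusted p = 0.0658, 0.0888 and 0.879 for sh1, sh2 and sh3). Kif11, which pushes the spindle poles apart, gave no call with any hairpin.

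All 4 genes of anaphase control rose with sh3. Pttg1 encodes securin, which holds separase inactive, and was at 22.9, 21.2 and 22.8 FPKM with sh1, 23.0, 21.4 and 23.0 FPKM with sh2 and 23.5, 22.5 and 21.9 FPKM with sh3, against 18.02, 18.5 and 17.04 FPKM with shLucif. All hairpin libraries lay above shLucif, by 0.31, 0.31 and 0.32 on the log2 scale (adjusted p = 0.000586, 0.000468 and 0.000218 for sh1, sh2 and sh3). Espl1, which encodes separase itself, was at 14.3, 13.8 and 13.3 FPKM with sh1, 12.3, 12.1 and 13.3 FPKM with sh2 and 23.1, 21.3 and 20.5 FPKM with sh3, against 14.5, 15.4 and 14.5 FPKM with shLucif. It rose with sh3 by 0.52 ± 0.053 (adjusted p = 1.39e-05), fell with sh2 by 0.22 (adjusted p = 0.00744) and gave no call with sh1. Cdc20, the activator of the anaphase-promoting complex, was at 69.0, 62.2 and 59.0 FPKM with sh1, 60.9, 57.1 and 61.5 FPKM with sh2 and 80.4, 77.7 and 72.6 FPKM with sh3, against 59.4, 56.3 and 52.1 FPKM with shLucif. The sh3 libraries stood clear of shLucif and the others overlapped it, by 0.45 ± 0.066 (adjusted p = 0.000172). Ube2c, the ubiquitin-conjugating enzyme of that complex, rose by 0.13, 0.11 and 0.11 with sh1, sh2 and sh3.

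Of the 6 genes of the midzone and cytokinesis, 4 rose with sh3, namely Kif20a, Kif23, Anln and Racgap1. Kif20a, the kinesin that carries the passenger complex to the midzone, was at 36.5, 33.6 and 35.0 FPKM with sh1, 33.8, 34.7 and 35.9 FPKM with sh2 and 67.3, 65.5 and 57.9 FPKM with sh3, against 43.8, 40.5 and 40.9 FPKM with shLucif. No group overlapped shLucif, with a log2 fold change of -0.24 ± 0.058 with sh1 (adjusted p = 0.00686), -0.25 ± 0.058 with sh2 (adjusted p = 0.00551) and 0.59 ± 0.058 with sh3 (adjusted p = 9.5e-06). Racgap1 and Kif23, which together form centralspindlin, rose by 0.38 and 0.34 with sh3, and Racgap1 fell by 0.15 with sh2. Anln, the scaffold of the contractile ring, rose by 0.30 with sh3. Prc1, which bundles midzone microtubules, and Ect2, the activator of RhoA, gave no call with any hairpin.

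The hairpins were then compared with one another without shLucif. Against the mean of sh1 and sh2, 29 of 38 members were called higher with sh3 and 0 lower, where 35.5% of the genes tested were called higher and 24.7% lower, and the median member difference was 0.25, beside 0.056 over all genes tested. The largest differences were those of Kif20a (0.84 ± 0.051, adjusted p = 1.44e-07), Espl1 (0.67 ± 0.046, adjusted p = 3.86e-07), Ttk (0.65 ± 0.042, adjusted p = 2.39e-07), Ccna2 (0.53 ± 0.039, adjusted p = 6.72e-07), Plk1 (0.50 ± 0.053, adjusted p = 9.53e-06) and Cenpf (0.50 ± 0.056, adjusted p = 1.59e-05). For these 6 genes each sh3 library lay above each sh1 and sh2 library. Ccnb1 was higher by 0.18 (adjusted p = 0.0233) and Top2a by 0.088 (adjusted p = 0.0434), while Cdk1 differed by 0.15 (adjusted p = 0.215) and Aurka by -0.094 (adjusted p = 0.0645). With 1 library left out at a time, the Ccnb1 call was kept in 11 of 12 fits and the Top2a call in only 2 of 12. Averaged over the 3 hairpins, 9 members were called higher and 3 lower than with shLucif, where 23.4% of the genes tested were called higher and 19.8% lower, 43.1% in all. The 6 largest of these were Pttg1 at 0.31 (adjusted p = 9.4e-05), Bub1 at 0.28, Cdca8 at -0.26, Kif2c at 0.25, Kif4 at -0.25 and Cdc20 at 0.24, and Ccnb1, Cdk1, Aurka and Top2a lay between -0.067 and 0.046 with no call.

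Genes of related lists were called with the hairpins too. Over all genes tested, 19.1% were called higher and 18.7% lower with sh1, and 18.9% and 20.0% with sh2. With sh3 these shares were 30.9% and 21.6%, and the counts below stand beside them. Of 30 genes of DNA replication and G1/S, 0 rose and 16 fell with sh1, 0 rose and 19 fell with sh2, and 10 rose and 12 fell with sh3, among them the falls of Pola1 and Ccne1 by 0.68 and 0.64 with sh1, of Fen1 and Pola1 by 1.02 and 0.68 with sh2, and of Fen1 by 1.16 with sh3. Pola1 encodes a DNA polymerase subunit, Ccne1 cyclin E1 and Fen1 the flap endonuclease. Of 13 condensin and cohesin genes, which shape and hold the sister chromatids, 10 fell with sh1, 9 fell with sh2, and 8 rose and 1 fell with sh3. The largest were Ncapd3 (-0.34) and Smc2 (-0.32) with sh1, Ncapd3 (-0.36) and Ncapd2 (-0.34) with sh2, and Smc2 and Ncapd2 (0.37 each) with sh3. Of 22 further kinetochore and checkpoint genes, 15 fell with sh1, 14 fell with sh2, and 9 rose and 7 fell with sh3, where Sgo1, the protector of centromeric cohesion, rose by 0.84 and Zwint, a kinetochore protein, fell by 0.84. The largest falls in that list were of Cenpp and Kntc1 with sh1, by 0.62 and 0.54, and of Kntc1 and Zw10 with sh2, by 0.62 and 0.49. Of 15 subunits and regulators of the anaphase-promoting complex, 4 fell with sh1, 4 fell with sh2, and 7 rose and 3 fell with sh3, where Ube2s (-0.64) and Anapc7 (-0.56) changed most. Of 11 other kinases and phosphatases of mitotic entry, 2 rose and 4 fell with sh1, 2 rose and 3 fell with sh2, and 3 rose and 3 fell with sh3, where Mastl (1.03), the Greatwall kinase, and Cdc25b (0.61), a Cdk1 phosphatase, changed most. Of 10 G1 cyclins, CDKs and CDK inhibitors tested, 1 rose and 2 fell with sh1, 3 rose and 2 fell with sh2, and 4 rose and 2 fell with sh3. The largest with sh3 were Ccnd3 (0.72) and Cdk2 (-0.59), and the 2 falls there were those of the kinase genes Cdk2 and Cdk4 (-0.35). With sh3 5 of 7 other mitotic kinesins rose and 1 fell, led by Kif20b (0.46) and Kifc1 (0.35), while 0 rose and 1 fell with sh1 and 1 rose and 2 fell with sh2. Of 15 transcription factors of mitosis genes 1 rose and 6 fell with sh1, 2 rose and 5 fell with sh2, and 4 rose and 3 fell with sh3, led by Mybl2 (0.65) and Nfya (-0.53). Mybl2 (B-Myb) was at 31.4, 32.9 and 30.0 FPKM with sh3, against 18.9, 19.9 and 20.4 FPKM with shLucif. Mki67, the marker of dividing cells, was at 20.0, 19.0 and 18.7 FPKM with sh1, 16.5, 17.3 and 18.6 FPKM with sh2 and 27.0, 27.6 and 28.0 FPKM with sh3, against 23.4, 24.7 and 23.8 FPKM with shLucif. It fell by 0.30 with sh1, fell by 0.43 with sh2 and rose by 0.19 with sh3.

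Other measures also differed between the hairpin lines. The 13 mitochondrially encoded messenger RNAs, used as a sign of RNA quality, summed to 28308 to 33993 FPKM with sh1, 32255 to 34490 FPKM with sh2 and 34929 to 38241 FPKM with sh3, against 36842 to 38098 FPKM with shLucif. The list of 10 mesenchymal and carcinoma marker genes includes Soat2 and the hairpin target Soat1, so its sum carries the fall of Soat1 itself. The sum was 331 to 345 FPKM with sh3, 274 to 284 FPKM with sh1 and 264 to 274 FPKM with sh2, against 313 to 325 FPKM with shLucif. Col1a1, 1 gene of the list, was at 54.3 to 57.8 FPKM with sh3, against 18.03 to 19.6 FPKM with shLucif. Their part in the results was not tested. None of 8 leukocyte and none of 4 endothelial marker genes reached a mean of 1 FPKM in these groups. Without shLucif replicate 2 the count for sh1 was 7 members rather than 11. Per the GENCODE M21 annotation, exons of Ccna2, Cdc20, Cdca8, Kif20a, Kif4, Nusap1, Plk1, Prc1, Ube2c and Cdc25c overlap a gene on the opposite strand. Those of Top2a overlap the gene Gm23451 on the same strand. Since the strand used in counting is not given in the sources used here, reads of each pair cannot be told apart.

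The promoter motifs can be set beside the sh3 calls. Of the 25 members that rose with sh3, 21 had a promoter window and 15 of these held a CHR within 50 bases of the start site. Of the 11 members with no call, 9 had a window and all 9 held one, among them Cdk1, Ccnb1 and Aurka. The 6 risen members whose window held none there were Birc5, Bub1, Kif2c, Mad2l1, Nusap1 and Pttg1. The windows of Kif2c and Pttg1 lie inside the annotated gene, away from its annotated start, as does that of Cdca8 among the members with no call. These counts hold only for the start sites used.

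The drug comparison asked what stk did to each line within 48 h. In CT26 cells no member was called in either direction in the limma fit, where 0.748% of the 11358 genes tested were called. Those 85 calls were 15 higher and 70 lower (0.616% of the genes tested), and 32 higher and 74 lower after quantile normalization. The median member difference was 0.016, beside -0.006 over all genes tested, and the members lay between -0.11 for Mad2l1 and 0.12 for Ect2. Ccnb1 was at 55.9, 55.4 and 46.6 FPKM with stk, against 48.7, 49.7 and 51.0 FPKM with DMSO, and Cdk1 at 31.2, 35.7 and 33.3 FPKM with stk, against 37.4, 34.2 and 32.1 FPKM with DMSO. Both overlapped. Aurka was at 68.0, 68.1 and 71.7 FPKM with stk, against 66.6, 65.3 and 62.0 FPKM with DMSO, a difference of 0.099 without a call (95% interval 0.003 to 0.196, adjusted p = 0.329). Aurka was among 5 members whose stk libraries all lay above DMSO, where 9.42% of the genes tested did. Top2a was at 68.4, 69.8 and 69.0 FPKM with stk, against 70.3, 70.6 and 69.4 FPKM with DMSO, with an interval of -0.088 to 0.045. That of Ect2, the member with the highest difference, was wider, at -0.13 to 0.36.

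In Hepa1-6 cells only 1 member, Ccnb1, was called lower with stk, and that call was not stable. Most other members lay slightly below DMSO without a call. Ccnb1 was at 39.0, 39.5 and 35.1 FPKM with stk, against 50.7, 47.2 and 50.1 FPKM with DMSO. The groups did not overlap, and the log2 fold change was -0.37 ± 0.056 (95% interval -0.51 to -0.24, adjusted p = 0.0422). Of the 11426 genes tested, 1.53% were called in either direction and 0.849% lower, so 1 called member does not set the members apart. The call was lost in each of the 6 fits that left out a library, whose log2 fold changes lay between -0.40 and -0.32, and without the filter on low values. The annotated pseudogene Ccnb1-ps was at 6.69, 6.42 and 6.27 FPKM with stk, against 7.52, 8.46 and 8.58 FPKM with DMSO, and since it can share reads with Ccnb1 the value of either is uncertain.

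Members of several roles lay below DMSO in the same cells. Of 38 members, 31 had a difference below 0, where 49.1% of the genes tested did and 50.9% lay above 0, and in 13 every stk library lay below every DMSO library, where 14.6% of the genes tested did. The median member difference was -0.075, beside 0.003 over all genes tested. Cdk1 was at 35.8, 36.0 and 35.4 FPKM with stk, against 39.6, 45.6 and 43.9 FPKM with DMSO, a difference of -0.26 without overlap that missed the threshold (95% interval -0.39 to -0.13, adjusted p = 0.0628). Top2a was at 69.5, 73.6 and 72.9 FPKM with stk, against 80.8, 81.0 and 83.6 FPKM with DMSO, also without overlap (-0.18, 95% interval -0.27 to -0.097, adjusted p = 0.0573). Pttg1 (securin) was at 74.8, 71.6 and 68.1 FPKM with stk, against 81.8, 83.0 and 81.0 FPKM with DMSO and did not overlap either (-0.19, adjusted p = 0.0628). Aurka overlapped, at 47.3, 51.0 and 47.2 FPKM with stk, against 48.7, 48.3 and 44.9 FPKM with DMSO, with an interval of -0.081 to 0.152. Centromere and kinetochore genes lay below DMSO in 6 of 6 cases and spindle checkpoint genes in 4 of 4, none of them called. Among the related lists 2 of 30 replication and G1/S genes fell, namely Pcna, the replication clamp, by 0.26 and Gins4, a helicase subunit, by 0.23, and no other list had a call. The mitochondrially encoded messenger RNAs summed to 39917 to 42787 FPKM with stk, against 41545 to 41631 FPKM with DMSO. The sum of the 10 mesenchymal and carcinoma marker genes, Soat1 and Soat2 included, was 71.5 to 78.3 FPKM with stk, against 82.1 to 86.1 FPKM with DMSO. The marker gene sums did not overlap while the mitochondrial sums did, and the part of either in the result was not tested.

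**Figure D4:**
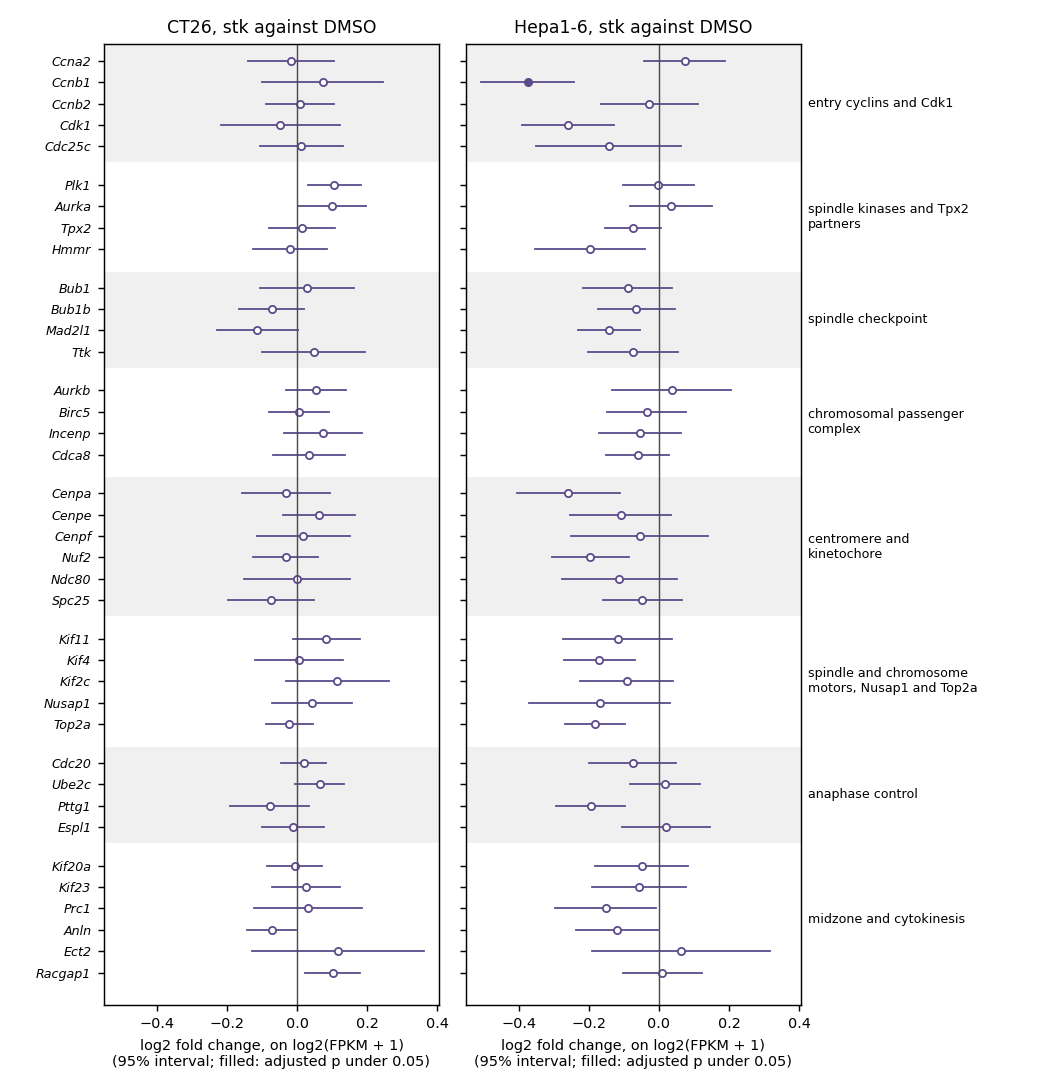
Log2 fold change of stk against DMSO on the log2(FPKM + 1) scale (horizontal axes) with its 95% interval (bars) for the 38 genes, grouped by role, in CT26 (left) and Hepa1-6 (right); filled symbols had an adjusted p under 0.05. In CT26 the genes scatter around 0, and in Hepa1-6 31 of 38 lie below 0, with Ccnb1 alone filled.

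Whether stk acted differently in CT26 than in Hepa1-6 was tested as the difference of the 2 responses, CT26 minus Hepa1-6. No member passed the limma test, where 0.304% of 12822 genes did. The difference was above 0 in 34 of 38 members, where 49.0% of the genes tested were above 0, and its median was 0.10. It was largest for Ccnb1, at 0.45 (95% interval 0.23 to 0.66, adjusted p = 0.107), and it was 0.21 for Cdk1 (adjusted p = 0.358), 0.16 for Top2a (adjusted p = 0.142) and 0.064 for Aurka (adjusted p = 0.704). Without CT26 stk replicate 3, whose Ccnb1 level was the lowest of its group, Ccnb1 passed at 0.53 (adjusted p = 0.0268). In the related lists 1 gene passed, Fbxo5 (Emi1), an inhibitor of the anaphase-promoting complex, at 0.29 (adjusted p = 0.0416).

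The levels of the set with DMSO alone differed between the lines. They summed to 1562 to 1599 FPKM in CT26, against 1219 to 1235 FPKM in Hepa1-6. The knockdown experiment had the reverse order, with 1047 to 1090 FPKM in CT26 shLucif libraries, against 1101 to 1141 FPKM in Hepa1-6 scramble libraries. The differences below therefore hold for the DMSO groups. In CT26 with DMSO 27 of 38 members were higher than in Hepa1-6 and 7 lower, where 76.8% of 12822 genes were called, 38.5% higher and 38.4% lower. The median member difference was 0.39, beside -0.007 over all genes tested. The libraries did not overlap in 27 higher and 8 lower members, where 39.9% and 39.8% of the genes tested did so, and 9 members had a difference below 0, where 50.3% of the genes tested did. All 6 genes of the midzone and cytokinesis were higher in CT26. Anln was at 59.4, 58.7 and 58.3 FPKM in CT26, against 18.7, 19.6 and 19.5 FPKM in Hepa1-6, a log2 difference of 1.56 ± 0.038 (adjusted p = 1.13e-11). Kif20a was at 103, 107 and 105 FPKM in CT26, against 43.2, 40.7 and 45.6 FPKM in Hepa1-6, a difference of 1.26 (adjusted p = 4.65e-10). Neither gene overlapped between the lines.

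Securin and separase, which act as a pair, differed in opposite directions. Pttg1 was at 28.6, 27.0 and 28.7 FPKM in CT26, against 81.8, 83.0 and 81.0 FPKM in Hepa1-6, a difference of -1.51 ± 0.043 (adjusted p = 5.39e-11). Espl1 was at 23.9, 24.6 and 24.6 FPKM in CT26, against 9.34, 8.55 and 9.03 FPKM in Hepa1-6, a difference of 1.35 ± 0.041 (adjusted p = 8.84e-11). Per length, CT26 thus had about as much Pttg1 as Espl1 RNA, while Hepa1-6 had far more Pttg1. Among the entry genes Cdc25c, the phosphatase that activates Cdk1, was at 13.2, 13.1 and 12.7 FPKM in CT26, against 4.65, 5.49 and 4.47 FPKM in Hepa1-6 (1.26, adjusted p = 1.98e-08). Ccna2 was at 107.6, 97.2 and 96.8 FPKM in CT26, against 42.7, 45.1 and 48.1 FPKM in Hepa1-6 (1.13, adjusted p = 3.03e-09). The entry pair itself differed little, with Ccnb1 at 48.7, 49.7 and 51.0 FPKM in CT26, against 50.7, 47.2 and 50.1 FPKM in Hepa1-6 (0.014, adjusted p = 0.859), and Cdk1 lower in CT26 by -0.31 (adjusted p = 0.00149). Aurka was higher by 0.44 (adjusted p = 3.75e-06) and Top2a lower by -0.22 (adjusted p = 3.22e-05).

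**Figure D5:**
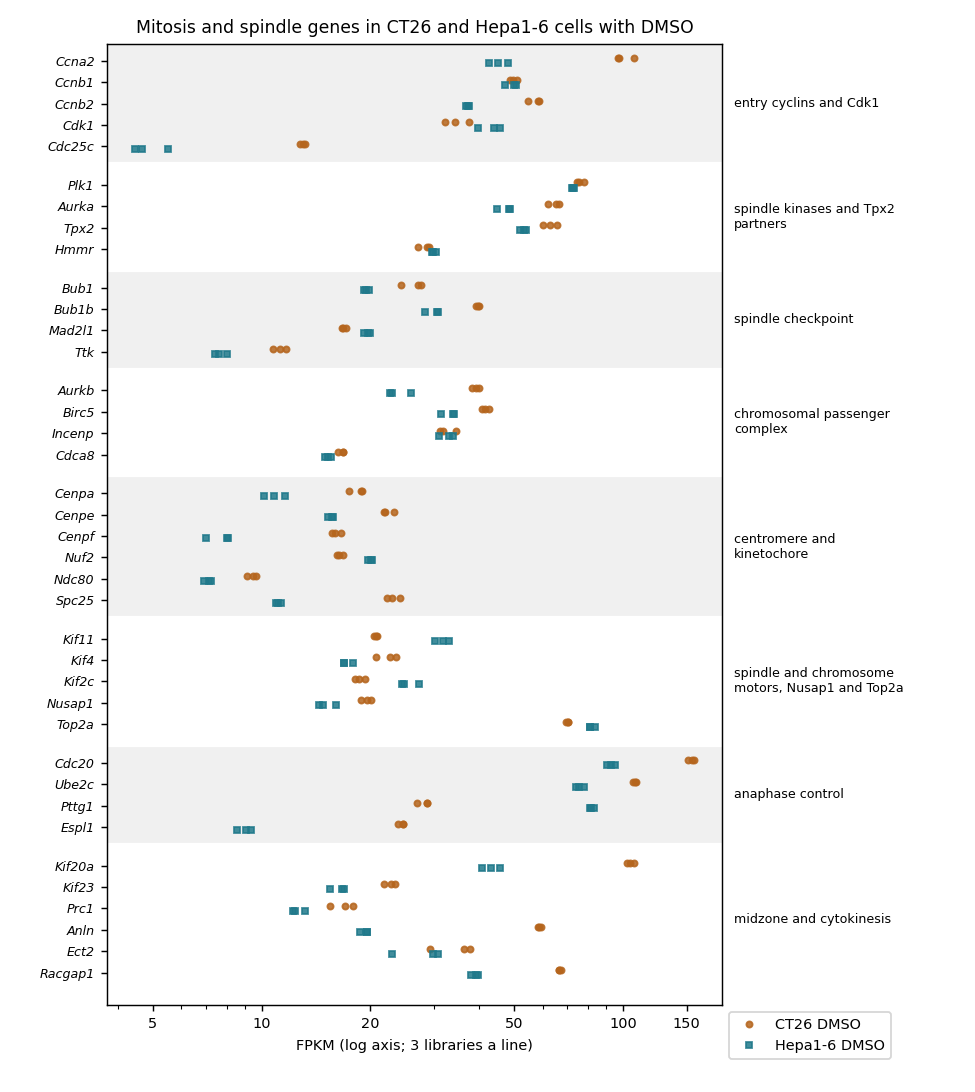
FPKM (horizontal log axis) of the 38 genes in the 3 DMSO libraries of CT26 (circles) and of Hepa1-6 (squares), grouped by role. Most genes lie farther right in CT26, all 6 of the midzone and cytokinesis do so on average, and Pttg1 lies at 27.0 to 28.7 in CT26 and at 81.0 to 83.0 in Hepa1-6.

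Genes of related lists differed between the lines in both directions. Over all genes tested, 38.5% were called higher and 38.4% lower in CT26, and the counts below stand beside these shares. Of the replication and G1/S genes 17 of 30 were higher and 11 lower in CT26, with Cdc6 (-0.98) and Tk1 (0.90) the largest, of the condensin and cohesin genes 10 of 13 higher and 2 lower, with Ncaph2 (1.03) and Smc3 (1.02), and of the transcription factors of mitosis genes 8 of 15 higher and 3 lower, with E2f8 (1.24) and Foxm1 (1.19). Of 22 further kinetochore and checkpoint genes 10 were higher and 7 lower, with Spc24 (1.40) and Bub3 (-0.87) the largest. Of 11 other kinases and phosphatases of mitotic entry 5 were higher, led by Cdc25b (1.37) and Mastl (1.05), and 5 lower, and of 15 subunits and regulators of the anaphase-promoting complex 8 were higher and 3 lower, with Anapc4 (1.04) and Cdc26 (-0.78). Of 7 other mitotic kinesins 2 were higher and 2 lower, with Kif18a (0.55) and Kif18b (-0.46). Foxm1, an activator of G2 and M phase genes, was at 57.1, 59.4 and 60.8 FPKM in CT26, against 26.0, 25.5 and 24.6 FPKM in Hepa1-6, a difference of 1.19. Mki67 went the other way, at 23.8, 26.0 and 24.5 FPKM in CT26, against 46.4, 50.1 and 48.9 FPKM in Hepa1-6, a difference of -0.94 (adjusted p = 5.43e-08). Of 12 G1 cyclins, CDKs and CDK inhibitors tested 3 were higher and 7 lower, with Cdkn2a and Cdkn2b, which encode inhibitors of G1 kinases, listed at 0 in every CT26 library and expressed in every Hepa1-6 library.

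The Hepa1-6 scramble libraries were set against those labelled Hepa1-6 shLucif, whose markers go partly against their label as described above. The comparison therefore shows how these libraries differ and cannot be read as scramble against shLucif in 1 line. Against the libraries labelled Hepa1-6 shLucif, 7 of 38 members were called higher with scramble and 17 lower, where 31.4% of 12055 genes were called higher and 36.8% lower, and the median member difference was -0.14, beside -0.045 over all genes tested. Pttg1 was at 94.8, 91.5 and 92.7 FPKM with scramble, against 27.5, 26.3 and 24.6 FPKM in the libraries labelled Hepa1-6 shLucif (1.79 ± 0.046, adjusted p = 1.7e-07). In the drug experiment, normalized separately, Pttg1 was at 81.0 to 83.0 FPKM in Hepa1-6 DMSO libraries and at 27.0 to 28.7 FPKM in CT26 DMSO libraries, and for this gene the libraries labelled Hepa1-6 shLucif lay nearer CT26. Anln was at 18.3, 18.4 and 18.3 FPKM with scramble, against 28.7, 30.6 and 29.2 FPKM in the libraries labelled Hepa1-6 shLucif (-0.66, adjusted p = 7.35e-06). In the drug experiment it was at 18.7 to 19.6 FPKM in Hepa1-6 DMSO libraries and at 58.3 to 59.4 FPKM in CT26 DMSO libraries. For this gene the libraries labelled Hepa1-6 shLucif lay nearer the Hepa1-6 DMSO libraries. The CT26 level of the whole set differed between the experiments, with a mean sum of 1586.5 FPKM with DMSO and 1063.1 FPKM with shLucif. The CT26 side of this comparison is therefore uncertain. Birc5 was at 27.9, 24.9 and 25.8 FPKM with scramble, against 43.7, 43.0 and 43.0 FPKM (-0.70, adjusted p = 1.46e-05). Cdc25c (-0.70), Ccnb2 (-0.64) and Cenpa (-0.58) were also lower without overlap. Cdk1 was higher by 0.31 (adjusted p = 0.000776) and Top2a lower by -0.15 (adjusted p = 0.0116), while Ccnb1 (-0.19, adjusted p = 0.057) and Aurka (-0.094, adjusted p = 0.0637) gave no call. The hepatocyte marker genes summed to 746 to 797 FPKM with scramble, against 93.9 to 102.6 FPKM in the libraries labelled Hepa1-6 shLucif, and the part of this difference in the results was not tested.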

How the data were processed

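Both expression tables hold FPKM values that the authors made before they deposited them. Per the submitters' processing notes, HISAT2, STAR, edgeR and DESeq2 and the build GRCm38 were named, with no role or order, and reads were trimmed with Skewer, per the labels' protocols. Those protocols also say that a SMARTer kit was used for some samples, without naming them. From these values, limma 3.58.1 in R 4.3.3 was fitted to log2(FPKM + 1) with a mean-variance trend, over genes reaching 1 FPKM in 3 or more libraries of a model, with 1 model per line and experiment, and in 1 model of both lines for the difference in response and for the DMSO levels. Tests were two-sided, with Benjamini-Hochberg adjustment over all genes tested and calls at 0.05. The script was tested on simulated data. Columns were matched to samples by name, and the sh1 columns to their group only. The 2 tables appear to be named for each other's experiment, so each column was used by its own name. A further 21 columns matched no labelled sample and were not used. FPKM gives no absolute depth. The members and lists were chosen with earlier results of these data known. Named genes were called members (the 6 largest changes where over 10 were called), the genes Ccnb1, Cdk1, Aurka and Top2a throughout, members called with all 3 hairpins in different directions, and the 2 largest called changes of each other list for sh3 and for the line levels, with 1 gene that this rule names not reported here; in further comparisons the other lists are given in part or as counts. Alternatives tried were a pseudocount of 0.1, no filter, a filter at 5 FPKM, quantile normalization, a replicate block, 1 model for all libraries of a table, and leaving out each library. Exon overlaps were read from GENCODE M21.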

Additional observations from a re-analysis of the deposited data

How the results depend on the processing

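Under the alternatives tried, none of 85 results for single genes (Ccnb1, Cdk1, Aurka, Top2a and the leading called members of each comparison) reversed. With a library left out, 888 refitted values of these genes kept their status as called or not, 17 lost a call and 7 gained one. Under the other alternatives 453 kept it, 4 lost a call and 8 gained one. Other genes named above were not rerun. Of the refitted member medians 1 moved by at least the median SE of the members, and 156 did not. Of the member counts, that of Hepa1-6 stk against DMSO moved beyond 1.5 times: it was 1 in the reported fit, 0 without the filter on low values, 4 with the filter at 5 FPKM, 6 in 1 model of every library in that table, and 0 with the replicate block. Same-numbered libraries deviated together with correlations between -0.067 and 0.091, so the samples share only a number, and the block changed no other member count beyond 1.5 times; it could not be fitted where sh1 took part, since its columns carry no sample number. Leaving out 1 library at a time gave 0 to 0 called members for CT26 stk, 0 to 0 for Hepa1-6 stk, 0 to 1 for the difference in response (1 without CT26 stk replicate 3), 33 to 35 for CT26 against Hepa1-6 DMSO, 7 to 12 for sh1, 10 to 14 for sh2, 23 to 29 for sh3, 10 to 14 for the mean of the hairpins, 26 to 29 for sh3 compared with sh1 and sh2, and 22 to 25 for scramble. Quantile normalization gave 23 higher and 3 lower members with sh3, and moved the share of higher calls over all genes with sh3 to 49.5% from 58.8%. Counts over all genes were less stable for stk. In CT26 they were 85 in the reported fit, 14 without the filter, 133 with the filter at 5 FPKM, 4 with the block and 204 in 1 model, and 2 to 92 with a library left out. In Hepa1-6 they were 175, then 4, 473, 4 and 928, with 8 to 59 when a library was left out, and for the difference in response 39, with 6 under the block and 7 to 28 with a library left out. The cause was not tested.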

Other observations

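Some genes spread widely between libraries of 1 group. Ect2, the activator of RhoA, was at 29.2, 36.3 and 37.7 FPKM in CT26 cells with DMSO, against 30.7, 29.9 and 23.0 FPKM in Hepa1-6 cells with DMSO, and the lines overlapped although the difference passed the test (0.30, adjusted p = 0.0343). Foxm1, an activator of G2 and M phase genes, was at 36.8, 61.0 and 35.7 FPKM with sh3, against 36.8, 46.0 and 36.0 FPKM with shLucif, and 1 sh3 library stood far above the others (adjusted p = 0.565).

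Cdkn1a, which encodes the CDK inhibitor p21, was at 82.7, 68.4 and 98.8 FPKM with sh1, 98.4, 87.6 and 99.95 FPKM with sh2 and 69.2, 70.03 and 78.1 FPKM with sh3, against 73.7, 73.0 and 72.1 FPKM with shLucif. It rose with sh2 by 0.38 (adjusted p = 0.0165) and gave no call with sh1 or sh3. Ccnd1, the cyclin of early G1, was at 84.9, 89.8 and 88.5 FPKM with sh1, 89.7, 92.8 and 92.2 FPKM with sh2 and 131.6, 127.2 and 119.6 FPKM with sh3, against 110.8, 117.8 and 120.4 FPKM with shLucif. It fell with sh1 and sh2, by 0.40 and 0.34, and rose with sh3 by 0.12 (adjusted p = 0.0462), where the libraries overlapped. These genes were chosen after their values were seen.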
